A study of Mus musculus with 30 samples.

Results

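The transcripts described here are 35 genes that neutrophils and macrophages are known for, measured by RNA-seq in preparations of mouse B cells. They were chosen by name, from a list that holds the markers S100a8 and Lyz2, out of 28273 genes named in either of 2 expression tables, and all 35 are listed in both tables. They fall into 13 secreted and granule proteins of neutrophils, 4 receptors of neutrophils, 9 macrophage genes, 6 genes of red pulp macrophages and complement, and 3 genes of Fc receptors and their adapters.

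The series studies mice in which a mutation of Ikzf3 (L161R in the mouse, L162R in the human gene), which encodes the lymphoid zinc finger factor Aiolos, is restricted to B cells. Of 30 samples, 18 are RNA-seq libraries and were used, and the other 12, chromatin assays, were not analysed here. All mice were C57BL/6. The young table holds 3 libraries of splenic B cells of homozygous mice (genotype label Ikzf3 fl/fl) and 3 of wild-type mice, aged 2 to 3 months. The aged table, from mice aged 15 to 18 months, holds 5 libraries of CLL cells, 4 of B cells outside the leukaemia (non-CLL B cells) and 3 of wild-type B cells. CLL libraries 1, 2, 4 and 5 and non-CLL libraries 2, 4 and 5 come from heterozygous mice (Ikzf3 fl/+). CLL library 6 and non-CLL library 6 come from a homozygous mouse (Ikzf3 fl/fl). The driver that restricts the mutation to B cells is not given in the sources used here. Red cells were lysed, B cells were then isolated on magnetic beads, and CLL cells were obtained as B220+CD5+ cells by flow sorting. The protocol of the aged mice names spleen or femur as the source of cells, while every label says spleen, and it gives a B cell purity of at least 85%. No purity is given for the young preparations.

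Neutrophils are short-lived phagocytes that kill with enzymes and iron-binding proteins packed into granules. Their precursors in the bone marrow transcribe the granule genes in order, with myeloperoxidase and elastase in the primary granules first and lactoferrin, cathelicidin and Ngp in the secondary granules after them. Mature neutrophils have largely stopped transcribing those genes and hold much S100a8 and S100a9 RNA. Macrophages of the spleen take up dying red cells in the red pulp, recycle their iron and secrete the complement protein C1q. None of these cells is the target of a B cell isolation. Some of the genes are also used by lymphocytes: Itgam marks B-1 cells, and Tyrobp and Fcer1g serve NK cells, and Tyrobp pairs with Siglech in plasmacytoid dendritic cells.

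All values are TPM, a share of the library's transcripts corrected for gene length. TPM keeps no read number, and sequencing depth is therefore unknown. In bulk RNA, fewer cells of a type and less RNA per cell cannot be told apart. As a gauge of what a silent gene shows, olfactory receptor (Olfr) rows were read in each library. Their median was 0 TPM in all 6 young libraries. In the aged table it was between 1.09 and 9.66 TPM in CLL libraries, between 7.16 and 9.24 TPM in non-CLL libraries and between 0 and 0.745 TPM in wild-type libraries. The libraries differ in further ways. Xist, transcribed in female cells, was at most 0.0567 TPM in the young homozygous libraries, against 80.9, 63.1 and 0.0288 TPM in young wild-type libraries 1, 2 and 3, so sex and genotype are partly mixed there. In the aged table Xist was between 38.14 and 70.51 TPM, except in CLL library 4, at 4.104 TPM. Ddx3y, a gene of the Y chromosome, was at 17.44 TPM in aged wild-type library 2, which also held Xist. In the other aged libraries Ddx3y was at most 0.1355 TPM. The part of sex in the aged comparisons was not tested. CLL library 2 of the aged table stands far above the others in granule genes, as described later. The summed TPM of 8 B cell markers was between 8371 and 9023 in young homozygous and between 7980 and 9339 in young wild-type libraries. In the aged table it was between 9186 and 15180 in CLL, between 5554 and 11210 in non-CLL and between 6797 and 15070 in wild-type libraries.

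Promoters were read for the genes whose levels set the libraries apart: S100a8 and S100a9, with the largest log2(TPM + 1) changes of the members tested between the young groups, Ngp, the member with the highest TPM in CLL library 2, and Elane, which stood furthest above the next aged library there by the ratio of TPM + 1. Shown are the 250 bases before each RefSeq start (GRCm38.p6, the assembly of mm10), 5′ to 3′ on the gene's strand. Capitals mark matches, on either strand, to GAGGAA, the core that the myeloid factor PU.1 binds, or to TTGCNNAA, a form of the C/EBP motif.
S100a8, chr3:90668821-90669070, plus strand: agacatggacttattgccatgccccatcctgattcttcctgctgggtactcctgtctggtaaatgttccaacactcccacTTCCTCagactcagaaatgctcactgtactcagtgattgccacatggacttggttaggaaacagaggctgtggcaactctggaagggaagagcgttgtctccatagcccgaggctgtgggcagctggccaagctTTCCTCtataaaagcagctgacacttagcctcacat
S100a9, chr3:90695722-90695971, minus strand: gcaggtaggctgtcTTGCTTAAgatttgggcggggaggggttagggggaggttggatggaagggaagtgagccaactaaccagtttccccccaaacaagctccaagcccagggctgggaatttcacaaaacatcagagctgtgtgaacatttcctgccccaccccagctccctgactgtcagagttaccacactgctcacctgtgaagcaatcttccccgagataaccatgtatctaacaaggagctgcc
Ngp, chr9:110419558-110419807, plus strand: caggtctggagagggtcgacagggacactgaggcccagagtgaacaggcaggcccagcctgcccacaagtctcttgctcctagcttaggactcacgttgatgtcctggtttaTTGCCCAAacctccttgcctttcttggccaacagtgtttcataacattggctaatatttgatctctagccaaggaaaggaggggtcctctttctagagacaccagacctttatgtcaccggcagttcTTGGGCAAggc
Elane, chr10:79886062-79886311, plus strand: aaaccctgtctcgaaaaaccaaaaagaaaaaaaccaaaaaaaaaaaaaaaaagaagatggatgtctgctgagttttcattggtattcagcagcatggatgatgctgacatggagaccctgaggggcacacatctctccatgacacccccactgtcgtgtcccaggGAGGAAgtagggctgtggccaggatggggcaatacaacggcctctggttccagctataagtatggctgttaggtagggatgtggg

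A promoter was found for 26 of the 35 members. GAGGAA occurred in 17 of these 26 and in 23.3% of all 32851 promoters of the table. TTGCNNAA occurred in 9 of the 26 and in 9.56% of all. These matches describe letters only, and neither factor's binding was measured here.

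The first comparison asks how B cells with the mutation differ from wild-type B cells in young mice, before leukaemia. All 35 members had a lower mean in homozygous than in wild-type libraries, and 33 passed the filter of at least 1 TPM in 3 libraries. Of these 33, 16 were called lower and 0 higher (adjusted p under 0.05, limma across all genes), where 12.6% of all genes tested were called lower and 38.4% higher. With TMM rescaling 22.7% of all genes were called lower and 23.9% higher, and 19 members lower. At an unadjusted limma p under 0.05, 22 members were lower and 0 higher, but the share of all genes at that threshold was not counted. Groups did not overlap for 20 members, all lower, against 16.9% of all genes in this direction and 44.5% in the other. The median log2 change of the 33 was -1.83, between -4.03 and -0.73, while the median of all genes was 0.18. Mmp8 and Marco lay under 1 TPM in every homozygous library and entered the test through the wild-type group alone, so that their calls and their lack of overlap follow in part from the filter. Elane and Mpo did not reach the filter. Nothing in the labels says that the young libraries come from separate mice, so these p-values measure only the spread between libraries.

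Calprotectin, the calcium-binding pair that S100a8 and S100a9 encode, held the largest decreases of the members tested on the log2(TPM + 1) scale. By the plain ratio of wild-type to homozygous means, Retnlg stood first at 19.8, with S100a9 at 16.5 and S100a8 at 14.9. S100a8 (chromosome 3, 90669071 to 90670034) stood at 59.1, 38.4 and 12.2 TPM in homozygous libraries 1, 2 and 3, against 310, 948 and 381 TPM in wild-type libraries 1, 2 and 3. Every wild-type library exceeded every homozygous one, and wild-type library 2 was the highest of the 6. The log2 change on the log2(TPM + 1) scale was -3.94 (SE 0.77, limma adjusted p = 0.0137). S100a9 (chromosome 3, 90692630 to 90695721) was at 82.1, 49.1 and 22.4 TPM in homozygous and 460, 1447 and 631 TPM in wild-type libraries. Its groups did not overlap either (log2 change -4.03, SE 0.68, adjusted p = 0.00859). The ratio of S100a9 to S100a8 stayed within a narrow range in all 6 libraries, between 1.28 and 1.83 in homozygous and between 1.49 and 1.65 in wild-type libraries.

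Among the other 11 secreted and granule genes, 6 fell. Retnlg, a resistin-like protein of neutrophils, was at 5.52, 2.14 and 1.11 TPM in homozygous against 45.8, 106 and 22.3 TPM in wild-type libraries (limma log2 change -3.80, SE 0.74, adjusted p = 0.0129). Hp, haptoglobin, which binds free haemoglobin, was at 3.84, 3.31 and 1.43 TPM in homozygous against 37.3, 81.3 and 15.9 TPM in wild-type libraries (log2 -3.35, adjusted p = 0.0139). Wfdc17, a small secreted protein of myeloid cells, was at 11.9, 8.66 and 5.29 TPM in homozygous against 80.8, 119 and 52.7 TPM in wild-type libraries (log2 -3.13, adjusted p = 0.00286). In all 3 genes wild-type library 2 was highest and homozygous library 3 lowest. Lcn2, which withholds iron from bacteria, was at 3.29, 3.84 and 1.06 TPM in homozygous against 11.4, 29.7 and 25.1 TPM in wild-type libraries (log2 -2.62, adjusted p = 0.00869). The collagenase Mmp8 was at 0.715, 0.529 and 0.322 TPM in homozygous against 3.80, 10.8 and 2.12 TPM in wild-type libraries (log2 -1.89, adjusted p = 0.0191). The gelatinase Mmp9 was at 3.21, 2.97 and 1.01 TPM in homozygous against 16.1, 34.8 and 11.7 TPM in wild-type libraries (log2 -2.62, adjusted p = 0.0086). These 3 genes were also separate between the groups in every library.

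The granule genes of marrow precursors followed another order of libraries. Ngp, the neutrophilic granule protein, was at 6.73, 8.89 and 1.26 TPM in homozygous libraries and at 2.72, 24.6 and 37.6 TPM in wild-type libraries. Camp, the cathelicidin, was at 3.60, 4.99 and 0.188 TPM in homozygous and at 3.27, 19.6 and 27.1 TPM in wild-type libraries. Ltf, lactoferrin, was at 1.59, 1.87 and 0.514 TPM in homozygous and at 0.604, 4.15 and 7.11 TPM in wild-type libraries. In these 3 genes wild-type library 1 lay among the homozygous libraries, wild-type library 3 was the highest of all, and no call was made. The primary granule genes were barely present: Elane at 0.109, 0.368 and 0.0613 TPM in homozygous and 0.571, 3.95 and 3.73 TPM in wild-type libraries, and Mpo at 0.669, 0.1995 and 0.0886 TPM in homozygous and 0.825, 3.86 and 4.65 TPM in wild-type libraries. Both were higher in each wild-type library than in any homozygous one.

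**Figure D1:**
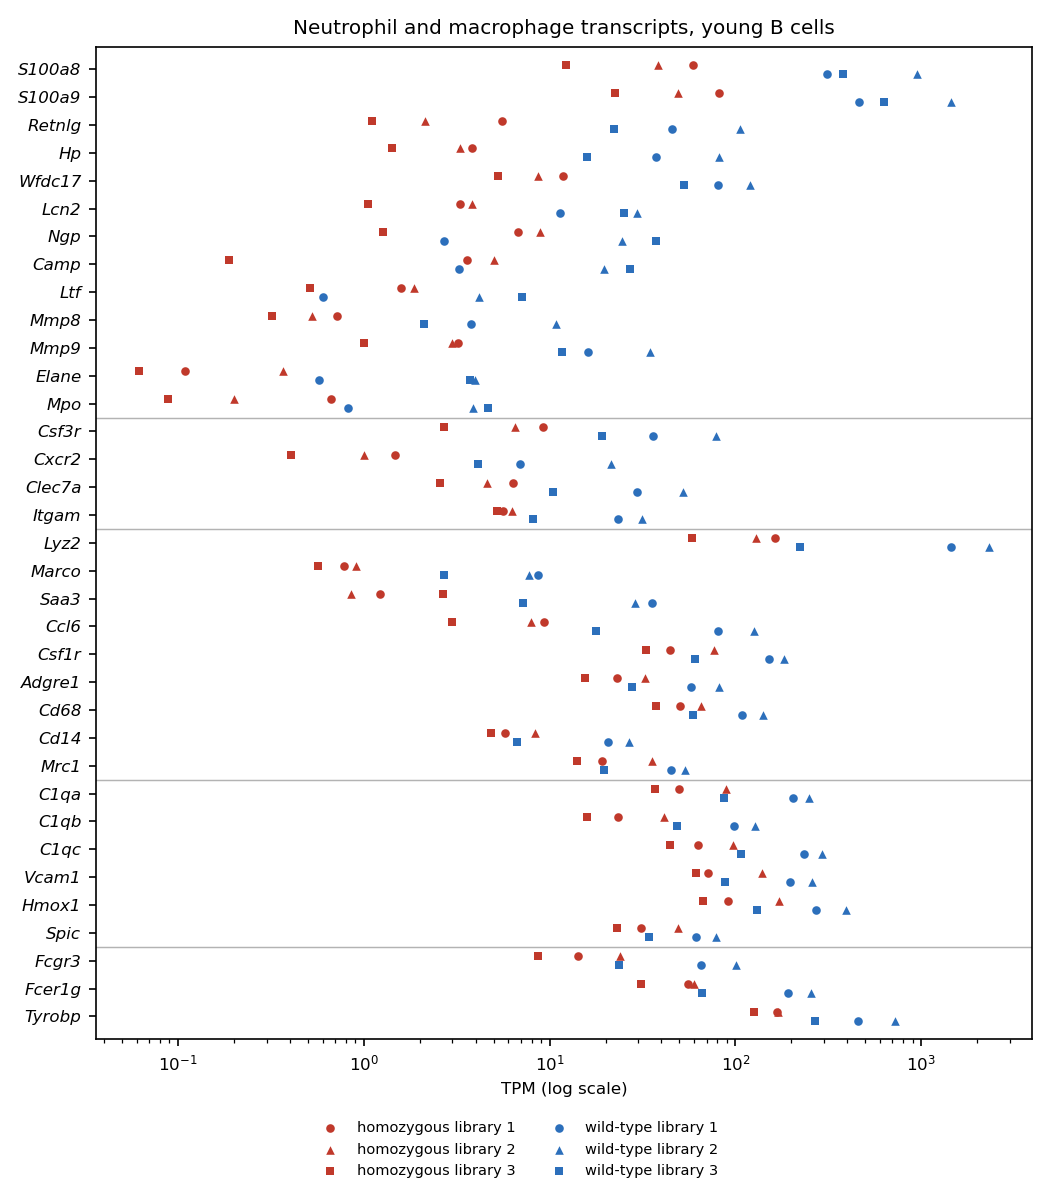
TPM of the 35 members (log scale) in the 3 homozygous and 3 wild-type young libraries, with symbols for library number and grey lines between the roles. S100a8 lies between 12.2 and 59.1 TPM in homozygous and between 310 and 948 TPM in wild-type libraries, while wild-type library 3 (squares) moves close to the homozygous libraries among macrophage genes.

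Of the 4 receptors, 3 fell. Csf3r, the receptor for the growth factor G-CSF, was at 9.27, 6.55 and 2.70 TPM in homozygous against 35.95, 78.3 and 19.2 TPM in wild-type libraries (log2 -2.56, adjusted p = 0.0309). Cxcr2, the chemokine receptor that draws neutrophils into tissue, was at 1.48, 1.00 and 0.408 TPM in homozygous against 6.92, 21.4 and 4.12 TPM in wild-type libraries (log2 -2.34, adjusted p = 0.0229). Clec7a, dectin-1, which binds fungal glucan, was at 6.38, 4.59 and 2.58 TPM in homozygous against 29.5, 52.1 and 10.5 TPM in wild-type libraries (log2 -2.33, adjusted p = 0.0392). Itgam, the integrin chain CD11b, was between 5.19 and 6.27 TPM in homozygous and between 8.19 and 31.3 TPM in wild-type libraries and was not called. The groups of all 4 receptors did not overlap.

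Among 9 macrophage genes, 3 were called lower. Lyz2 (chromosome 10, 117277541 to 117282272), the lysozyme of macrophages and neutrophils, was at 163, 129 and 58.2 TPM in homozygous against 1443, 2330 and 222 TPM in wild-type libraries. The groups did not overlap, but wild-type library 3 lay far nearer to the homozygous libraries than to the other wild-type ones, and the change was not called (log2 -3.07, SE 1.06, adjusted p = 0.0702). The scavenger receptor Marco was at 0.782, 0.910 and 0.5683 TPM in homozygous against 8.71, 7.79 and 2.70 TPM in wild-type libraries (limma log2 change -1.96, SE 0.36, adjusted p = 0.00431). Saa3, an acute phase protein, was at 1.23, 0.850 and 2.66 TPM in homozygous against 35.6, 28.7 and 7.23 TPM in wild-type libraries (log2 -3.07, adjusted p = 0.0163). The chemokine Ccl6 was at 9.31, 7.94 and 2.99 TPM in homozygous against 80.9, 126 and 17.8 TPM in wild-type libraries (log2 -3.02, adjusted p = 0.0443). All 3 were lowest, within the wild-type group, in library 3. Csf1r, the receptor on which macrophages depend, was at 44.4, 77.0 and 33.2 TPM in homozygous and 152, 184 and 60.6 TPM in wild-type libraries. Adgre1, which encodes F4/80, was at 22.9, 32.6 and 15.5 TPM in homozygous and 57.5, 82.1 and 27.9 TPM in wild-type libraries. For both, wild-type library 3 fell inside the homozygous range, as it did for the lysosomal protein Cd68, the endotoxin receptor Cd14 and the mannose receptor Mrc1, and these 5 genes were not called.

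Of the 6 red pulp and complement genes, C1qb alone was called. C1qb (chromosome 4, 136880126 to 136886200) was at 23.3, 41.1 and 15.9 TPM in homozygous against 97.8, 128 and 48.6 TPM in wild-type libraries (limma log2 change -1.73, SE 0.52, adjusted p = 0.0463). C1qa was at 49.8, 88.8 and 37.0 TPM in homozygous and 205, 249 and 86.4 TPM in wild-type libraries. C1qc was at 62.7, 97.1 and 44.7 TPM in homozygous and 234, 292 and 107 TPM in wild-type libraries. The 3 chains of C1q kept the same order of libraries, and only C1qa overlapped between the groups. Spic, the factor that red pulp macrophages need, was at 30.9, 48.8 and 23.2 TPM in homozygous and 61.4, 78.9 and 34.3 TPM in wild-type libraries. Vcam1, an adhesion molecule of these macrophages, was at 71.4, 139 and 61.1 TPM in homozygous and 198, 258 and 88.4 TPM in wild-type libraries. Spic, Vcam1 and the haem oxygenase Hmox1 overlapped between the groups through wild-type library 3.

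Of the 3 Fc receptor genes, Tyrobp, the adapter DAP12, was called. It was at 168, 171 and 126 TPM in homozygous against 455, 722 and 268 TPM in wild-type libraries (limma log2 change -1.53, SE 0.40, adjusted p = 0.0276), with no overlap. Fcer1g, the shared signalling chain of Fc receptors, was between 30.9 and 59.5 TPM in homozygous and between 66.0 and 257 TPM in wild-type libraries. Fcgr3, a low-affinity IgG receptor, was between 8.63 and 23.9 TPM in homozygous and between 23.5 and 101 TPM in wild-type libraries. Neither was called, and only Fcgr3 overlapped.

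The calls rest unevenly on the libraries. With wild-type libraries 1 and 2, which hold Xist, left out, wild-type library 3 alone stood against the 3 homozygous libraries. Its spread was assumed to be like theirs, so only changes are given for that fit. The log2 change was -3.60 for S100a8, -2.90 for Lcn2 and -2.54 for Wfdc17. It was -1.05 for Lyz2, -0.061 for Vcam1 and -0.066 for Spic. Elane, Mpo, Mmp8 and Marco lay under 1 TPM in every homozygous library and entered that fit through wild-type library 3 alone. With 1 library left out at a time, 6 members were called in each of the 6 fits: S100a8, S100a9, Wfdc17, Lcn2, Mmp9 and Marco. Marco entered all of these fits through the wild-type group alone, so its calls there follow in part from the filter. The number called lower was 13 without homozygous library 1, 8 without homozygous library 2, 9 without homozygous library 3, 12 without wild-type library 1, 11 without wild-type library 2 and 26 without wild-type library 3. Of all genes, between 8.35% and 9.75% were called lower in 4 of these fits, 10.5% without homozygous library 1 and 15% without wild-type library 3. The fit with wild-type library 3 alone sets libraries without Xist against each other.

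**Figure D2:**
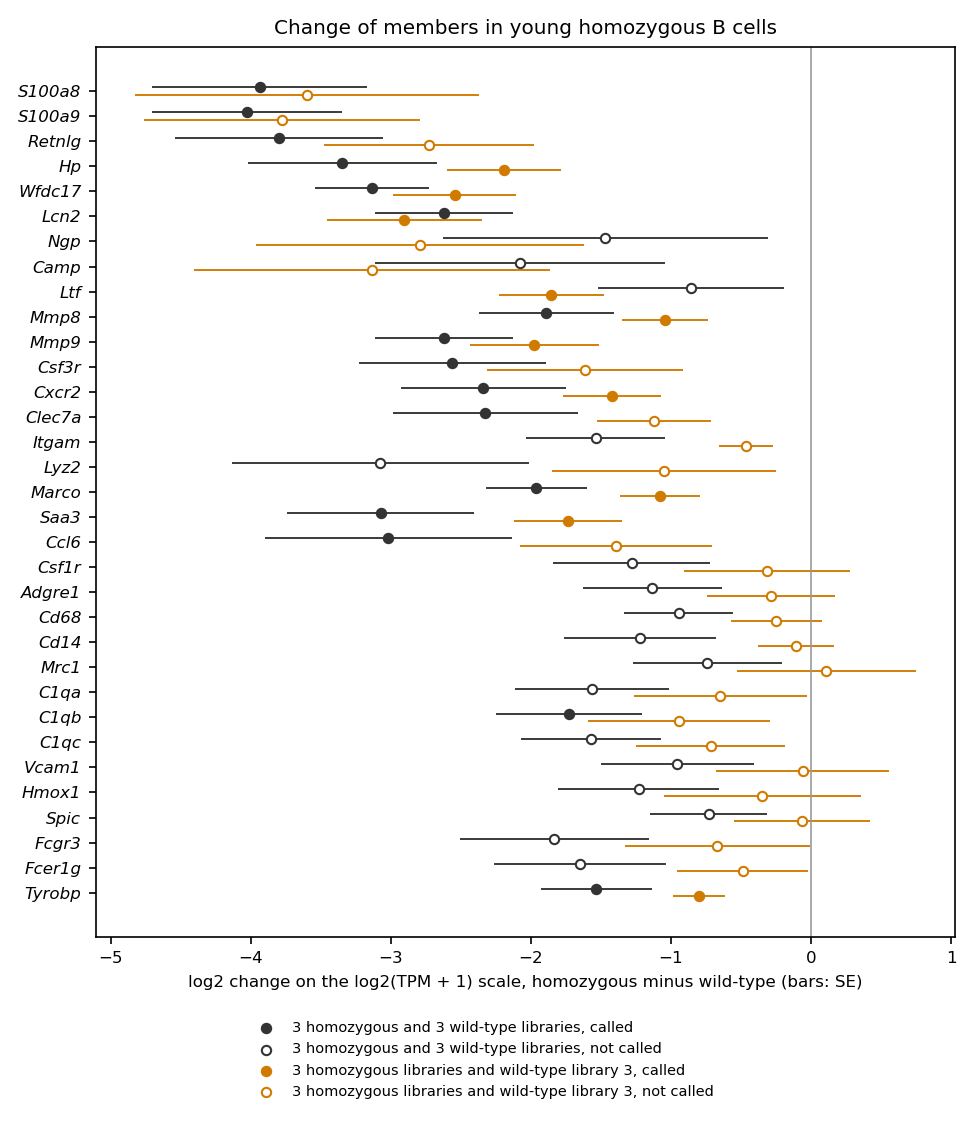
Log2 change (homozygous minus wild-type, log2(TPM + 1) scale, bars for SE) of the 33 members tested, with all 6 libraries (dark) and with wild-type library 3 as the only wild-type library (orange), filled where called. S100a8 lies at -3.94 and -3.60, while Lyz2 lies at -3.07 and -1.05 and Vcam1 and Spic come close to 0 in the second fit. Orange fills and bars rest on wild-type library 3 alone, whose spread is unknown, and are not read as calls.

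The mixture of members differed between libraries as well as their amount. Wild-type library 3 exceeded every homozygous library for 25 members, and the 10 exceptions were Csf1r, Adgre1, Cd68, Cd14, Mrc1, C1qa, Vcam1, Hmox1, Spic and Fcgr3. The order of the wild-type libraries was 2, 1, 3 from high to low for 25 members. It was 2, 3, 1 for S100a8, S100a9, Lcn2 and Elane, 3, 2, 1 for Ngp, Camp, Ltf and Mpo, and 1, 2, 3 for Marco and Saa3. Homozygous libraries ran 2, 1, 3 for 21 members, among them all 6 red pulp and complement genes, and 1, 2, 3 for 13 members, among them 8 secreted and granule genes and 3 receptors.

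Ratios within a library do not depend on its total. The ratio of Lyz2 to S100a8 was 2.76, 3.35 and 4.76 in homozygous and 4.66, 2.46 and 0.583 in wild-type libraries. The ratio of C1qc to S100a8 was 1.06, 2.53 and 3.66 in homozygous and 0.756, 0.308 and 0.282 in wild-type libraries. The ratio of Ngp to S100a8 was 0.114, 0.231 and 0.103 in homozygous and 0.00877, 0.026 and 0.0986 in wild-type libraries. Relative to S100a8, C1qc was higher in each homozygous library than in any wild-type one, Ngp was so by a narrow margin, and Lyz2 overlapped. With 3 libraries against 3, no exact permutation test can fall below a two-sided p of 0.10, and none was run. In contrast, C1qa stood at between 1.78 and 2.33 times C1qb in all 6 libraries.

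**Figure D3:**
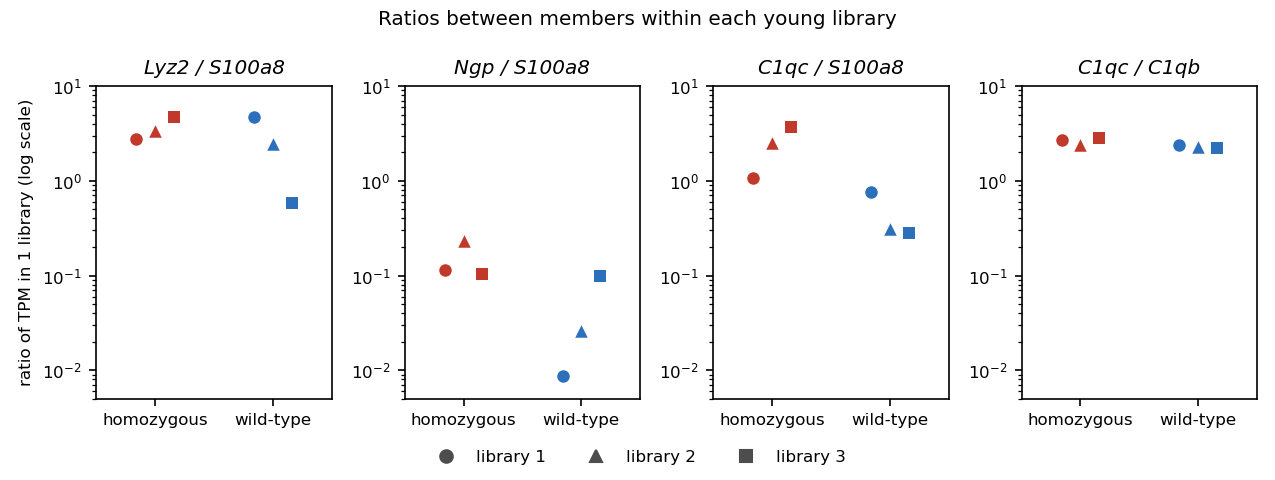
Ratio of TPM between 2 members within each young library (log scale), homozygous libraries left and wild-type libraries right, for Lyz2, Ngp and C1qc over S100a8 and C1qc over C1qb. Ngp over S100a8 spans 0.103 to 0.231 in homozygous and 0.00877 to 0.0986 in wild-type libraries, whereas C1qc over C1qb spans 2.37 to 2.82 in homozygous and 2.21 to 2.39 in wild-type libraries.

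Genes of the same cells outside the 35 were read as well. Of 30 other neutrophil genes 23 were tested, 18 were called lower and 0 higher, with a median log2 change of -1.77. Of these 18, 3 lay under 1 TPM in every homozygous library and were tested through the wild-type group alone, Lrg1 among them. Lrg1, a secreted glycoprotein of neutrophil granules, averaged 0.346 ± 0.321 TPM in homozygous libraries and 8.11 ± 3.69 TPM in wild-type ones (SD, n = 3 each, log2 change -2.71, limma adjusted p = 0.000441). Of 30 other monocyte and macrophage genes, all tested, 10 were called lower and 0 higher, with a median of -1.20. Ear2, a ribonuclease, averaged 12.1 ± 3.95 TPM in homozygous libraries and 47.5 ± 23.1 TPM in wild-type ones (log2 change -1.79, limma adjusted p = 0.0337). The summed markers of NK cells moved beside the members: 12.8, 11.7 and 7.13 TPM in homozygous against 18.3, 98.3 and 31.0 TPM in wild-type libraries, highest in wild-type library 2, and 1 of 5 tested was called lower. The summed markers of plasmacytoid dendritic cells were 54.9, 68.0 and 53.3 TPM in homozygous against 73.2, 117 and 72.3 TPM in wild-type libraries, without overlap. Most of this sum was Bst2, at 52.6, 66.3 and 51.0 TPM in homozygous against 69.5, 108 and 69.3 TPM in wild-type libraries, which was not called. Ccr9 overlapped between the groups and was not called. Of these 3 markers Siglech was called lower, at 0.898, 0.471 and 0.918 TPM in homozygous against 2.61, 6.38 and 2.08 TPM in wild-type libraries, and it too was tested through the wild-type group alone. Of 8 T cell markers 2 were called lower, and their sums were 46.7, 46.2 and 40.6 TPM in homozygous and 45.1, 78.0 and 75.8 TPM in wild-type libraries. The part of these cells in the result was not tested. Of 8 B cell markers 4 were called higher, led by Pax5, and 1, Cd79b, lower.

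In the aged table the members have to be read against the background. Counted as above it were values over the 95th percentile of the Olfr rows of the same library. That percentile was 3.36, 5.67, 2.87, 6.48 and 18.0 TPM in CLL libraries 1, 2, 4, 5 and 6, and 14.4, 15.8, 13.9 and 27.2 TPM in non-CLL libraries 2, 4, 5 and 6. In wild-type libraries 1, 2 and 3 it was 0.208, 1.95 and 0 TPM. By this measure 11, 29, 21, 7 and 6 members stood above background in the CLL libraries, 16, 10, 11 and 9 in the non-CLL libraries and 20, 25 and 32 in the wild-type libraries. Members above it in every library of their group were 4 in CLL (Cd68, Mrc1, Spic and Tyrobp), 7 in non-CLL B cells (Itgam, Lyz2, Adgre1, Cd68, Spic, Fcer1g and Tyrobp) and 13 in wild-type B cells. C1qa was between 0 and 5.81 TPM in CLL, between 0.521 and 7.62 TPM in non-CLL and between 0.560 and 29.9 TPM in wild-type libraries. Levels were not compared across the tables, which list different numbers of genes.

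CLL library 2, from a heterozygous mouse, held granule transcripts at levels no other aged library approached. Ngp (chromosome 9, 110419808 to 110423012) was at 2.3, 3290, 50.9, 6.99 and 13.3 TPM in CLL libraries 1, 2, 4, 5 and 6, at 73.1, 41.4, 19.0 and 13.2 TPM in non-CLL libraries 2, 4, 5 and 6, and at 0, 131 and 1.95 TPM in aged wild-type libraries 1, 2 and 3. Elane (chromosome 10, 79886312 to 79888216), neutrophil elastase, was at 2.11, 1143, 20.2, 0.441 and 7.18 TPM in CLL, at 7.33, 7.12, 4.91 and 2.77 TPM in non-CLL, and at 0, 15.3 and 4.04 TPM in wild-type libraries. Mpo (chromosome 11, 87793784 to 87804412), myeloperoxidase, was at 0.953, 715, 16.6, 3.67 and 8.52 TPM in CLL, at 8.04, 8.79, 4.21 and 2.00 TPM in non-CLL, and at 0.0383, 1.07 and 4.93 TPM in wild-type libraries. In all 3 genes CLL library 2 exceeded the next library by more than 20 times, and CLL library 4 was the second of the CLL group. Secondary granule genes followed, with Ltf at 522 TPM, Camp at 257 TPM and Lcn2 at 187 TPM in CLL library 2, against highest values elsewhere of 44.8, 15.5 and 12.5 TPM. Hp was at 538 TPM there and at most 29.8 TPM elsewhere.

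The mixture in CLL library 2 differed from that of the young libraries. S100a8 was at 3.72, 100.2, 3.12, 4.14 and 8.02 TPM in CLL, at 15.3, 15.3, 10.1 and 13.01 TPM in non-CLL, and at 0, 0.257 and 0.744 TPM in wild-type libraries. S100a9 was at 0.995, 159, 5.84, 4.16 and 14.2 TPM in CLL, at 20.0, 16.8, 20.8 and 15.7 TPM in non-CLL, and at 0, 7.24 and 1.64 TPM in wild-type libraries. In CLL library 2 Ngp was 32.8 times and Elane 11.4 times S100a8, while no young library had Ngp above 0.231 times S100a8. Other aged libraries also held high ratios, so these ratios do not single out CLL library 2. Ngp was 16.3 times S100a8 in CLL library 4, 4.78 times in non-CLL library 2 and 0.619 times in CLL library 1. In aged wild-type library 2, with S100a8 at only 0.257 TPM, Ngp was 508 times and Elane 59.2 times S100a8. The summed TPM of the 13 secreted and granule members was 28.9, 7114, 151, 52.5 and 126 in CLL libraries, between 126 and 246 in non-CLL and between 2.57 and 292 in wild-type libraries. CLL library 2 was the highest of the 12 aged libraries for 20 of the 35 members: 12 of 13 secreted and granule genes, 3 of 4 receptors, 4 of 9 macrophage genes, 1 of 3 Fc receptor genes and 0 of 6 red pulp and complement genes. Among the 30 genes that most exceeded the next aged library there, 10 were members. The others included Cd177, a surface protein of neutrophils, at 235 TPM against at most 11.2 TPM elsewhere, and Cebpe, a factor of granule formation, at 47.5 TPM against at most 5.05 TPM. The 3 C1q genes were at 4.45, 5.49 and 1.68 TPM in that library, under its background percentile of 5.67 TPM. Its 8 B cell markers summed to 10450 TPM, inside the 9186 to 15180 TPM of the CLL group. The part of other cells in these values was not tested.

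**Figure D4:**
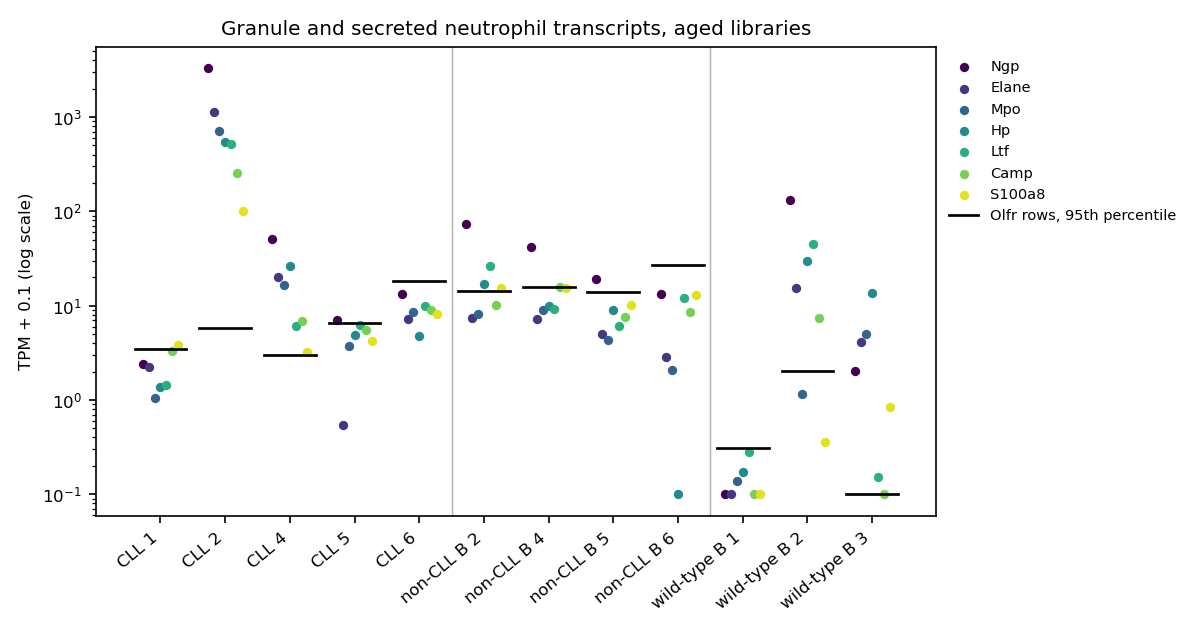
TPM + 0.1 (log scale) of 7 secreted and granule genes in the 12 aged libraries, with black bars at the 95th percentile of Olfr rows in each library. CLL library 2 reaches 3290 TPM for Ngp and 1143 TPM for Elane, while in most CLL and non-CLL libraries the points lie near the bar.

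CLL cells were then compared with aged wild-type B cells. All 35 members were tested, 1 was called lower and 0 higher, where 0.604% of all genes were called lower and 2.94% higher. With TMM rescaling these shares were 0.887% and 26.5%, with 1 member called lower and 2 higher, and with the Olfr median taken off 0.406% and 0.368%. At an unadjusted p under 0.05, limma gave 5 members higher and 1 lower. The share of all genes at that threshold was not counted, so these counts cannot be set against a background. C1qb was at 0.458, 5.49, 0.576, 4.97 and 5.33 TPM in CLL against 14.7, 5.90 and 32.4 TPM in wild-type libraries, with no overlap (log2 -2.11, SE 0.64, adjusted p = 0.0494). It was not called without wild-type library 1 (adjusted p = 0.147) or without wild-type library 3 (adjusted p = 0.243). S100a8 was higher in every CLL library than in any wild-type one (log2 2.92, SE 0.87, adjusted p = 0.0541) but missed the threshold. In all 3 wild-type libraries it lay under the filter of 1 TPM, so it was tested through the CLL group alone, and neither its lack of overlap nor its calls below are independent of the filter. Its adjusted p lay between 0.0026 and 0.0733 with 1 library left out, and it was called in 6 of these 8 fits, all but those without CLL library 2 or CLL library 6. In CLL libraries 5 and 6 S100a8 was under the 95th percentile of the Olfr rows. Lyz2 was at 6.20, 656, 45.9, 29.6 and 11.3 TPM in CLL and 6.73, 37.9 and 96.4 TPM in wild-type libraries (limma log2 change 0.32, SE 1.66, adjusted p = 0.902), and without CLL library 2 its change was -0.71 (adjusted p = 0.311).

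Without CLL library 2, 1 member was called higher and 3 lower, where 3.17% of all genes were called higher and 1.16% lower. Cd68, a protein of lysosomes, was at 511, 538, 188, 183 and 158 TPM in CLL and at 21.4, 123 and 80.6 TPM in wild-type libraries. Every CLL library exceeded every wild-type one, and without CLL library 2 the log2 change was 1.92 (SE 0.36, adjusted p = 2.16e-05). Ccl6 was at 1.69, 91.6, 6.81, 5.65 and 7.88 TPM in CLL and at 15.1, 20.8 and 72.5 TPM in wild-type B cells. Without CLL library 2 it was called lower (log2 -2.31, adjusted p = 0.00244). C1qb (log2 -2.33, adjusted p = 0.0219) and Vcam1 (log2 -2.07, adjusted p = 0.0331) were called lower as well. With CLL library 2 kept, Cd68, Ccl6 and Vcam1 were not called (limma adjusted p = 0.0635, 0.369 and 0.173). Groups did not overlap for 4 members on the higher side, S100a8, Cd68, Cd14 and Mrc1, where 29% of all genes tested were so placed. Cd14, like S100a8, was under 1 TPM in every wild-type library and was tested through the CLL group alone. On the lower side C1qb did not overlap, as was so for 2.55% of all genes. The median log2 change of all genes was 0.93.

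Few genes of the lists beside the members were called in this comparison. Of 29 other neutrophil genes tested 2 were called higher: Hdc, which makes histamine, at 36.4 ± 17.7 TPM in CLL (SD, n = 5) and 2.92 ± 2.99 TPM in wild-type libraries (n = 3, limma adjusted p = 5.15e-06), and the receptor Trem1. Hdc is also a gene of basophils, and the basophil protease Mcpt8 was called higher too, 1 of 5 genes of eosinophils, basophils and mast cells. Trem1 (0.564 ± 0.320 TPM) and Mcpt8 (0.0802 ± 0.139 TPM) lay under 1 TPM in every wild-type library. They were tested through the CLL group alone, and their calls follow in part from the filter. The part of basophils was not tested. Of 28 other monocyte and macrophage genes tested 1 was called higher and 2 lower. The one called higher was Fcgr4, an IgG receptor, at 53.6 ± 36.4 TPM in CLL (SD, n = 5) and 3.49 ± 3.09 TPM in wild-type libraries (n = 3, limma adjusted p = 0.00608). Those called lower were the lysosomal protease Lgmn and the lipid transfer protein Pltp.

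Between CLL cells and non-CLL B cells, Vcam1 was the only member called, and 5.02% of all genes were called lower and 0.744% higher. With TMM rescaling these shares were 0.457% and 1.12%, with the Olfr median taken off both were 1.27%, and in neither was a member called by limma. Vcam1 (chromosome 3, 116110020 to 116129688) was at 2.36, 8.13, 1.38, 2.87 and 9.25 TPM in CLL against 27.6, 8.36, 12.95 and 21 TPM in non-CLL libraries, with CLL library 6 above non-CLL library 4 (limma log2 change -1.78, SE 0.53, adjusted p = 0.0468). It stayed called in 2 of 9 fits with 1 library left out, those without CLL library 2 or CLL library 6, and elsewhere its adjusted p lay between 0.0616 and 0.126. Vcam1 stood above the Olfr percentile in 1 of 5 CLL and 1 of 4 non-CLL libraries. In the others it lay within the background, so its call rests largely on such values. No member had groups that did not overlap, where 7.51% of all genes lay wholly lower and 1.17% wholly higher. The change of S100a8 was -0.54 (SE 0.87, adjusted p = 0.662) and that of Lyz2 0.08 (SE 1.27, adjusted p = 0.966).

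Per the series' design text these cells come from the same mice, and with the number in the title as a block 3 members were called lower. Adgre1 was at 217, 25.6, 9.73, 5.63 and 22.0 TPM in CLL libraries 1, 2, 4, 5 and 6 against 236, 62.9, 70.8 and 92.7 TPM in non-CLL libraries 2, 4, 5 and 6, so that each mouse's CLL library was the lower one (log2 -2.80, SE 0.29, adjusted p = 0.000206 with the block). CLL library 1, which has no partner, held 217 TPM and adds nothing to the blocked change. Tyrobp (log2 -1.35, SE 0.27, adjusted p = 0.0182) and Vcam1 (log2 -1.64, adjusted p = 0.0495) were the other two. Over all genes 697 were called with the block, 2.59% of those tested lower and 0.538% higher, against 1287 without it.

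Without CLL library 2, 4 members were called lower against non-CLL B cells, as were 2.79% of all genes tested. Fcer1g (chromosome 1, 171229572 to 171234349) was at 2.58, 100.1, 14.6, 10.5 and 24.4 TPM in CLL against 89.6, 142, 91.7 and 333 TPM in non-CLL libraries, and its log2 change was -3.65 (SE 0.64, adjusted p = 0.0213) without CLL library 2. Tyrobp (chromosome 7, 30413782 to 30417582) was at 95.2, 81.5, 31.0, 35.1 and 67.8 TPM in CLL against 143, 124, 68.8 and 221 TPM in non-CLL libraries (log2 -1.30, SE 0.37, adjusted p = 0.0485 without CLL library 2). Both groups of Tyrobp overlapped through CLL libraries 1 and 2 and non-CLL library 5. Wfdc17 (log2 -1.89, adjusted p = 0.0461) and Vcam1 (log2 -2.0, adjusted p = 0.0446) were called too. With CLL library 2 kept and no block, Fcer1g, Tyrobp and Wfdc17 were not called (limma adjusted p = 0.071, 0.0547 and 0.0516).

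Markers of other cells that use Fcer1g and Tyrobp moved with them. The summed markers of plasmacytoid dendritic cells were at 44.4, 34.4, 10.3, 18.0 and 48.8 TPM in CLL against 403, 414, 203 and 1037 TPM in non-CLL libraries, and all 3 were called lower. The summed NK cell markers were at 11.2, 55.5, 16.3, 34.4 and 46.4 TPM in CLL against 139, 318, 193 and 690 TPM in non-CLL libraries, and 4 of 6 were called lower. Non-CLL library 6 was the highest of the aged libraries for both sums, and also for Fcer1g and Tyrobp. In the wild-type libraries the dendritic sum was 4.68, 183 and 10.1 TPM and the NK sum 7.14, 24.1 and 32.6 TPM. The part of these cells in the change of Fcer1g and Tyrobp was not tested.

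**Figure D5:**
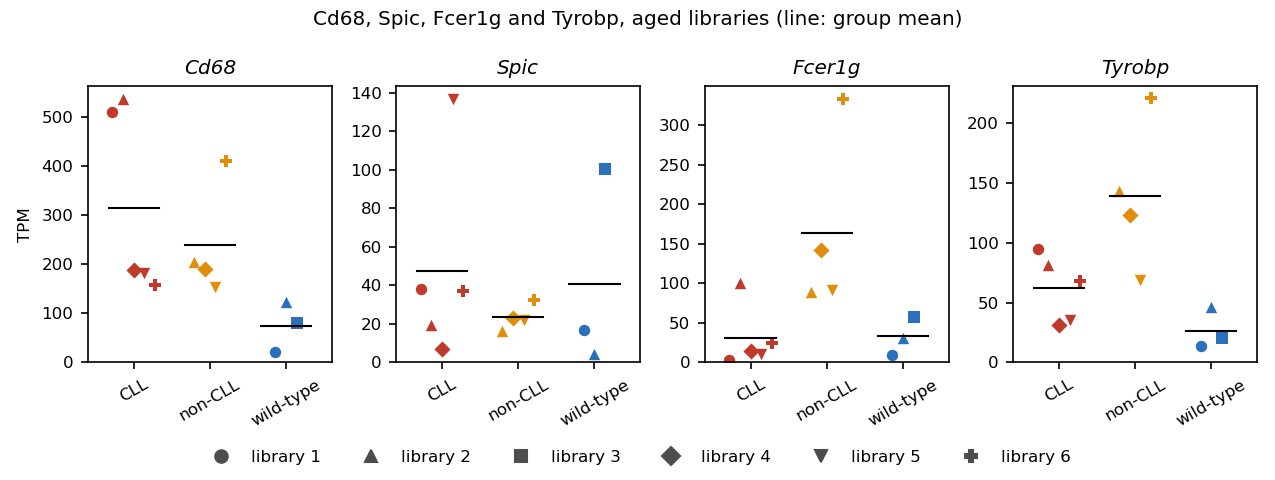
TPM of Cd68, Spic, Fcer1g and Tyrobp in aged CLL (5 libraries), non-CLL (4) and wild-type (3) B cells, with symbols for library number and lines at group means. Fcer1g lies between 89.6 and 333 TPM in non-CLL libraries and between 9.63 and 58.1 TPM in wild-type libraries, and Spic shows no separation of the groups.

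Non-CLL B cells had 16 of 35 members called higher than wild-type B cells and 0 lower by limma. At an unadjusted limma p under 0.05, 17 were higher and 1 lower, with no share of all genes counted. The share of members called is not above the background, since 55.8% of all genes tested were called higher and 1.48% lower. The median log2 change of all genes was 1.65. With TMM rescaling 43.8% of all genes were called higher and 15.4% lower, and 5 members higher and 2 lower. Groups did not overlap for 14 members, all higher, against 53.7% of all genes. The 3 wild-type libraries are those that served in the comparison with CLL cells. Tyrobp was at 143, 124, 68.8 and 221 TPM in non-CLL against 13.4, 46.2 and 20.2 TPM in wild-type libraries (limma log2 change 2.41, SE 0.47, adjusted p = 0.00115). Fcer1g was at 89.6, 142, 91.7 and 333 TPM in non-CLL against 9.63, 31.1 and 58.1 TPM in wild-type libraries (limma log2 change 2.38, SE 0.64, adjusted p = 0.0106). Cd68 was at 206, 190, 153 and 410 TPM in non-CLL against 21.4, 123 and 80.6 TPM in wild-type libraries (limma log2 change 1.88, SE 0.57, adjusted p = 0.0193). These 3 stood above the Olfr percentile in every non-CLL library and did not overlap between the groups. The call of Cd68 was lost without non-CLL library 2 (adjusted p = 0.0503).

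The other 13 called members stood between 2.26 and 32.6 TPM in non-CLL libraries, where the Olfr percentile was between 13.9 and 27.2 TPM. S100a8 had a log2 change of 3.46 (SE 0.36, adjusted p = 5.16e-05), yet its 10.1 to 15.3 TPM in non-CLL libraries were at or below the Olfr percentile in all but 1 of them. S100a8 and Cd14 were under 1 TPM in every wild-type library, so they were tested through the non-CLL group alone, and their calls follow in part from the filter. S100a9 (log2 2.78), Saa3 (log2 2.41), Wfdc17 (log2 2.35), Camp (log2 2.45), Cxcr2 (log2 2.31), Marco (log2 1.91), Cd14 (log2 1.68), Mrc1 (log2 1.51), Fcgr3 (log2 1.71), Retnlg (log2 2.05), Csf3r (log2 1.83) and Hmox1 (log2 1.39) completed the list, with limma adjusted p between 0.000921 and 0.0498. With 1 library left out, Retnlg stayed called in 1 of 7 fits, Csf3r and Hmox1 in 2, Camp in 5 and Fcgr3 in 6. With each library's Olfr median taken off, the changes of Fcgr3 (-0.62), Hmox1 (-0.19) and Marco (-0.20) turned negative. In that fit 0 of 27 members tested were called by limma, with the smallest adjusted p at 0.0527. Lyz2, at 35.9, 36.2, 24.6 and 48.2 TPM in non-CLL and 6.73, 37.9 and 96.4 TPM in wild-type libraries, was not called (log2 0.23, SE 0.74, adjusted p = 0.814). Where only genes of at least 20 TPM were tested, 9 members remained and 1, Tyrobp, was called (limma adjusted p = 0.0442). In that fit 0.942% of all genes were called higher.

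Spic and Adgre1 show how far single aged libraries differ. Spic was at 38.0, 19.2, 6.93, 137 and 37.3 TPM in CLL, at 16.2, 23.3, 21.9 and 32.2 TPM in non-CLL, and at 17.03, 4.31 and 100.7 TPM in wild-type libraries. Adgre1 had its highest aged values in CLL library 1 (217 TPM) and non-CLL library 2 (236 TPM), while the wild-type libraries held 20.4, 118 and 136 TPM. Neither was called in any of the 3 aged comparisons without the block. The summed TPM of all 35 members was between 508 and 8889 in CLL libraries, between 690 and 1471 in non-CLL libraries, and 149, 809 and 816 in wild-type libraries 1, 2 and 3. Wild-type library 1 was thus the poorest in these transcripts, and 8 members were listed at 0 TPM there, Saa3 and 7 secreted and granule genes.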

How the data were processed

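RNA-seq values were deposited by the authors as TPM per gene in 2 tables, per the labels of the aged samples and, in the young table, per column sums. The submitters' processing notes name the reference mm10 and the tools MACS2 2.2.0, STAR 2.4.0.1 and Bowtie2 2.3.4.1, without saying which tool served which assay. The quantifier, annotation and use of strand are not given in those sources. Because TPM holds no counts, no count model, counting interval or depth could be had.

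Dropped were 25 aged and 26 young names turned into dates and 887 young entries without a name, which held between 4.44% and 9.36% of TPM. That left 22781 aged and 26266 young genes. Wfdc17 and Adgre1 are listed in the aged table under the older symbols Gm11428 and Emr1, matched through RefSeq. Genes that reached 1 TPM in a number of libraries equal to the size of the smaller group were tested with limma 3.58.1 in R 4.3.3 on log2(TPM + 1), with a variance trend and robust estimation, two-sided, and Benjamini-Hochberg adjustment over all genes tested. Called means an adjusted p under 0.05. Each table was fitted alone, with only the groups of the comparison. The procedure was tested on simulated data.

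The members and lists were chosen with earlier results of these data known. Values per library, young or aged, are given for members called in any comparison except Cd14, Mrc1, Hmox1 and Fcgr3. They are also given for S100a8 and Lyz2 and for defining genes of each role. Log2 changes are given where called and for S100a8 and Lyz2. Genes of other lists are named only from the 4 largest called changes of a list.

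Numbers in the titles pair CLL and non-CLL libraries, which per the series' design text come from the same mice. Deviations of same-numbered CLL and non-CLL libraries from their group means correlated between -0.033 and 0.138. Those of differently numbered ones correlated between -0.215 and 0.123, a range that overlaps it. The chromatin assays were not analysed here.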

Additional observations from a re-analysis of the deposited data

Results flagged for a closer look

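Values that lay apart from the rest of their group by Dixon's criterion at the 95% level were looked for among the members in the 5 CLL and the 4 non-CLL libraries. Chance alone sets apart about 1 in 20 groups. CLL library 2 lay above the other CLL libraries for 16 members. Its TPM values were 3290 for Ngp, 1143 for Elane, 714.8 for Mpo, 537.8 for Hp, 522.2 for Ltf, 256.8 for Camp, 186.6 for Lcn2 and 91.55 for Mmp8. They were 158.9 for S100a9, 100.2 for S100a8, 75.45 for Retnlg and 12.43 for Wfdc17. They were 656.3 for Lyz2, 100.1 for Fcer1g, 91.6 for Ccl6 and 34.51 for Clec7a. CLL library 1 lay apart for Adgre1 at 217 TPM and Hmox1 at 29.42 TPM, CLL library 5 for Spic at 137 TPM, and CLL library 6 for Marco at 10.93 TPM. Non-CLL library 5 lay below its group for Hmox1 at 7.159 TPM.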

How the results depend on the processing

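Young comparison. Members called lower were 5 at a minimum of 20 TPM, 26 with library weights and 12 without wild-type libraries 1 and 2. Genes called were 4002 at 20 TPM and 2858 without those 2 libraries. With 1 library left out, 4511 to 6860 genes and 8 to 26 members lower were called. Of all genes, 8.35% to 15% were called lower and 27.8% to 39.9% higher in these fits. At 20 TPM 13.7% of all genes tested were called lower and 48.1% higher. With library weights these shares were 18.5% and 49.3%. The fit without wild-type libraries 1 and 2 keeps 1 wild-type library, so its counts are not read as calls.

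CLL cells against wild-type. Genes called were 8853 with a pseudocount of 0.1, 210 with one of 10, 457 without a filter, 149 at 20 TPM, 5906 with TMM rescaling, 12299 with library weights, 135 without the variance trend and 101 after taking off the Olfr median. Members called higher were 5 with a pseudocount of 0.1, 2 with TMM and 8 with weights, where 39.7%, 26.5% and 51.7% of all genes were called higher. Members called lower were 3 with weights, where 6.26% of all genes were. They were 0 with a pseudocount of 10, no filter, 20 TPM, no trend or the Olfr median taken off. With 1 library left out, 345 to 8222 genes, 1 to 6 members higher and 0 to 3 lower were called. Of all genes, 1.2% to 37.1% were called higher and 0.362% to 2.34% lower in these fits. The change of Lyz2 turned to -0.21 with the Olfr median taken off, and ranged from -0.71 to 1.15 with 1 library left out, at -0.71 without CLL library 2 and -0.68 without wild-type library 1.

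CLL against non-CLL cells. Genes called were 256 with a pseudocount of 0.1, 232 at 20 TPM, 352 with TMM, 11705 with weights, 156 without the trend and 348 with the Olfr median taken off. Members called lower were 2 with a pseudocount of 10 and 7 with weights, where 5.47% and 50.2% of all genes were called lower. They were 0 with a pseudocount of 0.1, no filter, 20 TPM, TMM, no trend or the Olfr median taken off. With 1 library left out, 325 to 11118 genes and 0 to 7 members lower were called. Of all genes, 1.05% to 48.6% were called lower in these fits. S100a8 turned to 0.29 with TMM and 0.0039 with weights. Lyz2 turned to -0.077 with the Olfr median taken off, and ranged from -0.94 to 0.69 with 1 library left out, at -0.94 without CLL library 2 and -0.085 without non-CLL library 5.

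Non-CLL against wild-type. Genes called were 83 at 20 TPM and 43 with the Olfr median taken off. Members called higher were 1 at 20 TPM, 5 with TMM and 0 with the Olfr median taken off, where 0.942%, 43.8% and 0.231% of all genes were. Called lower were 2 with TMM and 2 with weights, where 15.4% and 4.56% of all genes were. With 1 library left out, 11315 to 12862 genes, 12 to 17 members higher and 0 to 1 lower were called. Of all genes, 49.7% to 57.4% were called higher and 0.632% to 2.5% lower in these fits. Lyz2 turned to -0.77 with TMM, and -0.13 with the Olfr median taken off, and ranged from -0.76, without wild-type library 1, to 1.06 with 1 library left out. With the Olfr median taken off Fcgr3 turned to -0.62, Hmox1 to -0.19 and Marco to -0.20.

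With the replicate number as a block, 29 young members were called lower, where 14.8% of all genes tested were called lower and 39.5% higher. Correlations of same-numbered young libraries were -0.0904, 0.245 and 0.31, while those of differently numbered ones lay between -0.316 and 0.19. Whether the young numbers stand for pairs was not tested. The block called 2 genes and 0 members in CLL against wild-type, and 697 genes and 3 members lower in CLL against non-CLL, where the numbers stand for mice. TMM put the median change over all genes (log2) at -0.0085, -0.066 and 0.99 in the young, the CLL against non-CLL and the non-CLL against wild-type comparisons, against 0.18, -0.77 and 1.65 as deposited. Values of single members kept their direction and side of the threshold in 445 cases, lost the call in 113, gained it in 14 and reversed in 14. Causes were not tested. Small groups and an unknown depth limit every comparison.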
